A study of Caenorhabditis elegans with 2 samples.

Results

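The cytochrome P450, UDP-glucuronosyltransferase and glutathione S-transferase genes of Caenorhabditis elegans were examined for binding of NHR-179, a nuclear hormone receptor. They were taken as the protein-coding genes of the WBcel235 assembly with a symbol starting in cyp-, ugt-, gst- or gsto-. This gave 188 genes of 19973 nuclear protein-coding genes, of which 74 were cyp, 67 were ugt and 47 were gst, a count that includes 3 gsto genes of the omega class. Some further C. elegans enzymes of these classes carry other symbols and were not included in the 188.

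Binding was measured by ChIP-seq, in which chromatin bound by a protein is recovered with an antibody and sequenced. The animals were whole hermaphrodite young adults of strain OP465, genotype unc-119(tm4063) III; wgIs465, harvested 64 hours after L1 larvae had been synchronized by starvation. The integrated transgene wgIs465 supplies NHR-179 fused at its C-terminus to GFP and FLAG, in animals that also carry the unc-119 mutation, and the chromatin was recovered through the GFP. All animals belonged to 1 group with 2 biological replicates, numbered 2 and 3, so the enzyme genes could be set beside all other genes and the replicates beside each other, with no treatment to compare. Whole animals were used, so binding in 1 tissue cannot be told apart from weaker binding in many.

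Cytochrome P450 enzymes oxidize lipids, hormones and foreign compounds, and UDP-glucuronosyltransferases and glutathione S-transferases then join sugars or glutathione to the products, which makes them more soluble and easier to export. In mammals, the nuclear receptors PXR and CAR switch on genes of all of these families when they bind a foreign compound, and nematodes have many more nuclear hormone receptor genes than mammals. In C. elegans many of these enzymes are made in the intestine, several cyp-35 genes are induced by foreign compounds, and gst-4 is a widely used reporter of oxidative stress and of the transcription factor SKN-1.

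The authors' lists on the ce11 build were 1 per replicate, 1 from both replicates pooled, and an optimal list of peaks that recur by the irreproducible discovery rate. The optimal list held 256 peaks, the pooled list 9606, the replicate 2 list 12866 and the replicate 3 list 13745. Replicate and pooled lists hold background regions as well as peaks. Each peak has a summit, its highest point, and a signal, which is the authors' score and is used here only to describe or rank peaks within a list, rank 1 being the highest. A gene was counted when a summit lay within 1000 bp of one of its transcript starts or inside the gene. Shares of genes carry exact Clopper-Pearson 95% intervals, which cover counting error only, and genes are not replicates of the condition. Read counts and depth were not in these lists, so the depth behind each peak is unknown.

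The highest summits at enzyme genes lay beside small RNA genes, as most optimal summits at genes of any kind did, and the share of enzyme genes in the optimal list was near that of all genes. The optimal list had a summit at 2 of 188 enzyme genes, gst-27 and cyp-14A4, which is 1.06% (0.129 to 3.79%), against 0.846% of all nuclear protein-coding genes. Both of these summits, and the next highest at cyp-43A1 and in cyp-14A4 in the pooled list, were within 200 bp of a tRNA or small nucleolar RNA (snoRNA) gene. Over all genes, 98 of 147 optimal summits, 66.7%, were within 200 bp of a small RNA gene. Their sequences are shown because they hold the highest summits of the set. They are from the RefSeq genome of WBcel235, the same assembly as ce11, 100 bases to either side of the pooled summit and 5′ to 3′ on the strand of the small RNA gene, whose bases are in capitals.
gst-27 upstream, chrII:15165991-15166191, minus strand: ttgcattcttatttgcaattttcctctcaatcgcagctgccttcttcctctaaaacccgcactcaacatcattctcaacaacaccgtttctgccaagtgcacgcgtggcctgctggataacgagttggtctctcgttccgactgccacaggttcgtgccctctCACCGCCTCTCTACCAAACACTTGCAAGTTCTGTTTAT
cyp-14A4 upstream, chrX:13284740-13284940, minus strand: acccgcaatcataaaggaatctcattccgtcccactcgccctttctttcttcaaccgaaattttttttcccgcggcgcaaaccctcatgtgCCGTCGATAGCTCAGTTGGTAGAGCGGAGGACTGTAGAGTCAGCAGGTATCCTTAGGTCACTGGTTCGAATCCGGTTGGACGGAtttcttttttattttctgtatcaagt
cyp-14A4 intron, chrX:13283591-13283791, minus strand: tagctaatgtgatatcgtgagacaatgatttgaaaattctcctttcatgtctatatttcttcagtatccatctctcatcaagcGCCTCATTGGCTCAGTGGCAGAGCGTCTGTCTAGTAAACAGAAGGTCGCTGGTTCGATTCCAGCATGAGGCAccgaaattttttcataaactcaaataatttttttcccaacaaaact
cyp-43A1 upstream, chrX:5713670-5713870, plus strand: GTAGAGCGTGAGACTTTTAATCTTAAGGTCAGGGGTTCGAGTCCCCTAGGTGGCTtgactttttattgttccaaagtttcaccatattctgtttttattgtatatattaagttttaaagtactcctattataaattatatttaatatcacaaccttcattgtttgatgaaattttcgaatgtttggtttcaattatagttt

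gst-27 (WBGene00001775, II from 15164890 to 15165731, minus strand) is a glutathione S-transferase gene in a tandem array of 9 gst genes. Its pooled and optimal summit, at position 15166091, was 360 bp upstream of its transcript start and 63 bp from the snoRNA gene Y53F4B.48. This summit had a signal of 118.5 and rank 71 in the pooled list. Its counterparts had rank 84 in the replicate 2 list (signal 59.3) and rank 79 in the replicate 3 list (signal 59.3), at positions 15166070 and 15166089. The gst-27 summit was the highest of all enzyme gene summits in the pooled list and in each replicate list. The neighbour gst-28 ends within the same stretch, and its gene overlapped the optimal peak interval although the summit lay outside it.

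cyp-14A4 (WBGene00011009, X from 13282043 to 13284197, minus strand), a P450 gene, had 2 pooled summits and each lay inside a tRNA gene. The upstream summit, at position 13284840 and 643 bp from the transcript start, was in a tRNA-Tyr gene and had a signal of 80.9 and rank 213 in the pooled list. It was found at rank 646 in the replicate 2 list and at rank 153 in the replicate 3 list. The other pooled summit, at position 13283691 and 506 bp into the gene, was in a tRNA-Thr gene within an intron, with a signal of 64.7 and rank 394. The replicate 3 list had it at the same position with rank 500, and the nearest summit of the replicate 2 list, of rank 720, was at position 13283827, too far to be paired within 100 bp.

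cyp-43A1 (WBGene00017108, X from 5714522 to 5717562, plus strand) is a P450 gene with a summit at position 5713770, which is 752 bp upstream of its start and 46 bp from a tRNA-Lys gene. The pooled signal was 70.9, of rank 290, below the lowest signal of the optimal list, 74.7. The replicate 2 list had a summit at the same position with rank 1077. The replicate 3 list had one of rank 236 at position 5713629, on the other side of the tRNA gene and 23 bp from it. A second cyp-43A1 summit, 115 bp after the start and away from small RNA genes, had a pooled signal of 40.5 and replicate ranks of 2204 and 7608.

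These 4 summits were the only ones of 68 distinct pooled summits at enzyme genes that lay near a tRNA, snRNA, snoRNA or rRNA gene, which is 5.88%, against 5.02% of the summits at all genes. They were also the only ones with a deposited −log10 q-value of at least 1.3. Of the 188 enzyme genes, 14 had such a small RNA gene in reach, meaning within 200 bp of the stretch in which a summit would be counted, and 2 of these 14 had an optimal summit. None of the other 174 had one. Among all nuclear protein-coding genes, an optimal summit was found at 13.2% of 843 with a small RNA gene in reach and at 0.303% of 19130 without. Whether the signal at gst-27, cyp-14A4 and cyp-43A1 belongs to the enzyme gene or to the small RNA gene was not tested.

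**Figure D1:**
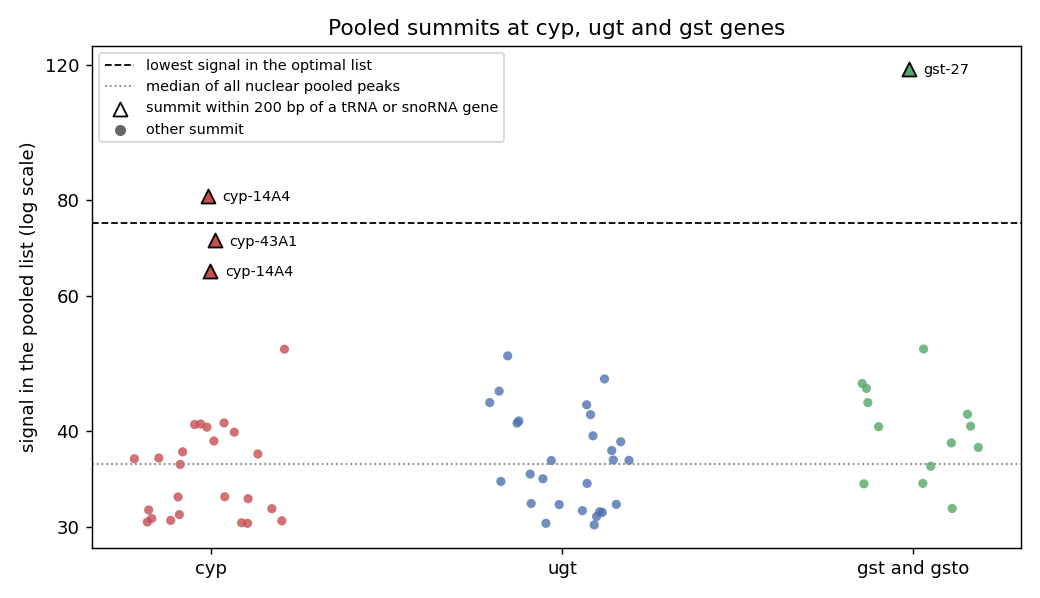
Signal (authors' score, log scale) of each distinct pooled summit at cyp, ugt and gst or gsto genes, with triangles for summits within 200 bp of a tRNA or snoRNA gene and circles for the others. The 4 triangles, at 64.7 to 118.5, stand above every circle, and 2 of them lie above the lowest signal of the optimal list, 74.7 (dashed line), while the dotted line is the median of all nuclear pooled peaks, 36.2.

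Away from small RNA genes, the pooled summits of enzyme genes had a signal near that of other genes. The 64 such summits had a median signal of 36.7, against 36.1 for the 7296 at all genes, and the highest were at gst-8, cyp-35A5 and ugt-65. The windows of the highest such summit of each family, and of 2 genes with summits in both replicates, are shown on the plus strand, 50 bases to either side of the pooled summit. Capitals mark AGTTCA in cyp-35A5 and gst-8, and in ugt-12 the letters TTATCA, the reverse complement of the GATA factor site TGATAA. The place named with each window is that of the summit base. A window can cross an exon border, so the letters in capitals can lie outside that place.
cyp-35A5 intron, chrV:3936936-3937036, plus strand: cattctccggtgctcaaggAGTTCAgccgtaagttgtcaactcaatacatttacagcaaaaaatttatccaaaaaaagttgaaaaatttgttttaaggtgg
gst-8 upstream, chrII:4883476-4883576, plus strand: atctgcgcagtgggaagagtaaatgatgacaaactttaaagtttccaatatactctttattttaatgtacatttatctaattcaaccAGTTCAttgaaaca
ugt-65 intron, chrIV:12427896-12427996, plus strand: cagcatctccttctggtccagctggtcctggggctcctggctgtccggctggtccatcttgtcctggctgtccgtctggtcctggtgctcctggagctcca
ugt-12 coding exon, chrV:4889064-4889164, plus strand: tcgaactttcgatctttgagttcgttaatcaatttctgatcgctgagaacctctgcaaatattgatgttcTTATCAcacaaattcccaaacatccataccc
gsto-1 intron, chrIII:7946778-7946878, plus strand: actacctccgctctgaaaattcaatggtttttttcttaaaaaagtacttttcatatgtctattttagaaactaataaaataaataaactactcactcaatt

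gst-8 had a pooled summit 186 bp upstream of its start with a signal of 51.2 and rank 1046, and a second one 14 bp inside the gene with a signal of 38.1. The second one had a counterpart of rank 443 in the replicate 3 list, and the first had none within 100 bp in either replicate list. cyp-35A5, one of the P450 genes inducible by foreign compounds, had a pooled summit in an intron 660 bp after its start, with a signal of 51.2 and rank 1049. The replicate 3 list had it at rank 765 and the replicate 2 list had no summit at this gene. The highest ugt summit, in an intron of ugt-65 with a signal of 50.1 and rank 1138, lay in the coding exon of col-130, a collagen gene inside that intron, 570 bp from the col-130 start. It had no counterpart within 100 bp in either replicate list. Its position was 12427946, and summits at 12428097 in replicate 2 and 12428053 in replicate 3 lay just beyond that distance. Those were paired with a weaker pooled summit of ugt-65, described below.

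As a whole set, enzyme genes had summits about as often as all genes. In the pooled list 54 of 188 enzyme genes had a summit, which is 28.7% (22.4 to 35.8%), against 31.2% of all nuclear protein-coding genes. In the replicate 2 list 76 had one, 40.4% (33.3 to 47.8%) against 38.8%. In the replicate 3 list 82 had one, 43.6% (36.4 to 51.0%) against 41.7%. A summit shared by both replicates within 100 bp was found at 17 enzyme genes, 9.04% (5.36 to 14.1%) against 9.25%. Each interval of the enzyme genes holds the share of all genes, so no difference for the whole set was detectable with this number of genes. With a −log10 q-value of at least 1.3, pooled summits were left at 3 enzyme genes and at 1.67% of all nuclear protein-coding genes.

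**Figure D2:**
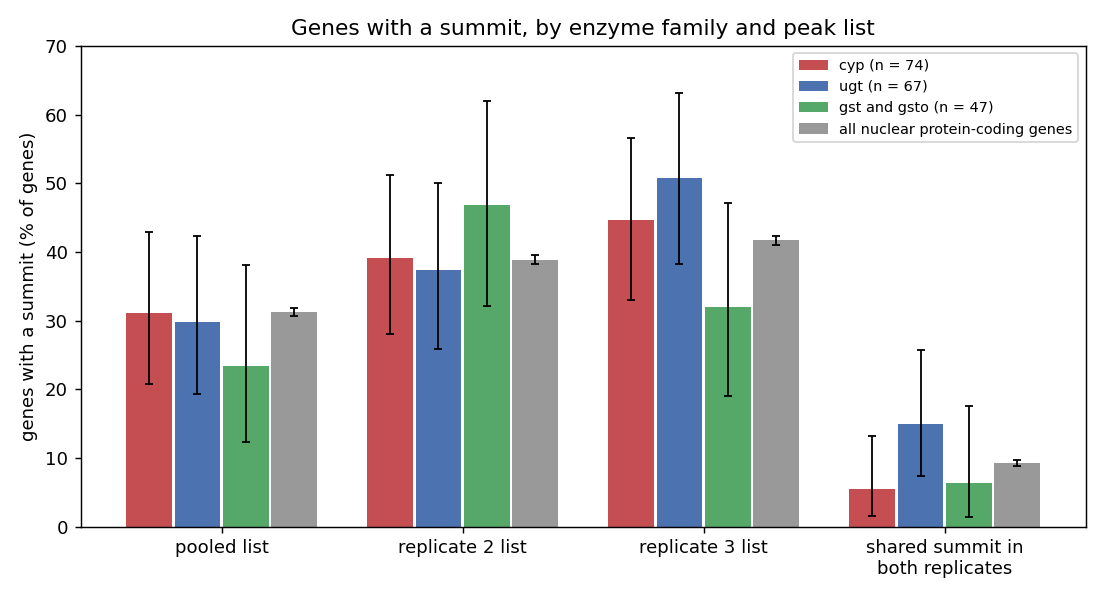
Percent of the 74 cyp, 67 ugt and 47 gst or gsto genes, and of all nuclear protein-coding genes, with a summit in the pooled list, in each replicate list, and with a summit shared by both replicates within 100 bp; error bars are exact 95% intervals for counting error. Every family's interval holds the share of all genes in each list, and the gst share was above the ugt share in replicate 2 (46.8% and 37.3%) and below it in replicate 3 (31.9% and 50.7%).

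The 3 families did not keep one order. In the pooled list a summit was found at 23 cyp genes (31.1%, 20.8 to 42.9%), at 20 ugt genes (29.9%, 19.3 to 42.3%) and at 11 gst genes (23.4%, 12.3 to 38.03%). The gst genes had the highest share in the replicate 2 list, 46.8%, against 39.2% of cyp genes and 37.3% of ugt genes. In the replicate 3 list they had the lowest share, 31.9%, against 44.6% of cyp genes and 50.7% of ugt genes. Summits shared by both replicates were found at 10 ugt genes (14.9%, 7.40 to 25.7%), 4 cyp genes (5.41%, 1.49 to 13.3%) and 3 gst genes (6.38%, 1.34 to 17.5%). These intervals overlap between all families.

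Of the 188 enzyme genes, 74 had no summit in the pooled list or in either replicate list, 39.4% against 42.3% of all genes, and 34 had one in all of these lists, 18.1% against 19.2%. The genes with a summit shared by both replicates were 22.4% of the enzyme genes found in replicate 2 and 20.7% of those found in replicate 3. For all genes these shares were 23.8% and 22.2%. By family they were 13.8% and 12.1% for cyp, 40% and 29.4% for ugt, and 13.6% and 20% for gst genes.

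The cyp genes with a shared summit were cyp-14A4, cyp-43A1, cyp-13B2 and cyp-32B1, of which 3 are on X and cyp-32B1 is on V. On the autosomes 1 of 67 cyp genes had a shared summit, 1.49% (0.0378 to 8.04%), against 8.15% of all autosomal genes, and on X 3 of 7, 42.9% (9.90 to 81.6%), against 16.2%. The autosomal interval just leaves out the share of all genes; it is 1 of many intervals set beside such a share, and the split was chosen after the values were seen. cyp-13B2 had its pooled summit 5 bp after its transcript start, in an untranslated exon, with a signal of 41.0 and rank 2849. Its counterparts had rank 5879 in replicate 2 and rank 11690 in replicate 3, the second of these among the lowest peaks of its list. cyp-32B1 had its shared summit in an intron 1633 bp after its start, with a pooled signal of 40.8 and replicate ranks of 4326 and 10756.

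Of the 5 cyp-35A genes, a subfamily singled out after its values were seen, 4 had pooled summits, namely cyp-35A1, cyp-35A2, cyp-35A3 and cyp-35A5, beside 31.2% of all genes. The same subfamily had summits at 4 genes in the replicate 3 list and at 1 gene in the replicate 2 list, and none was shared by both replicates. cyp-35A1 had a pooled summit of signal 39.9 in its coding exon 37 bp after the start. cyp-35A1 and cyp-35A2 lie side by side and also shared a weaker pooled summit of signal 30.4, which was counted for both. cyp-35A3 had a pooled summit of signal 36.8, 551 bp upstream of its start and 182 bp from the start of K09D9.14. cyp-35A4, cyp-35B1 and cyp-35C1 had no summit in any list, and cyp-35D1 had 1 in replicate 3 of rank 11395.

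Other P450 groups also had different counts in the different lists. The 11 cyp-13A genes had pooled summits at 4 members, cyp-13A2, cyp-13A4, cyp-13A6 and cyp-13A7, while 7 had summits in replicate 2 and 5 in replicate 3. The shares of all genes were 31.2% in the pooled list, 38.8% in replicate 2 and 41.7% in replicate 3. In each of these lists the same summit was counted for both cyp-13A6 and cyp-13A7. The 11 cyp-33C genes had pooled summits at 3 members, of which cyp-33C2 had the highest, of signal 40.9, 136 bp upstream of its start and of rank 710 in the replicate 2 list. The 8 cyp-34A genes had none in the pooled list, while 3 had summits in replicate 2 and 4 in replicate 3. The 5 cyp-25A genes had none in any list. Between 27.7% and 56.0% of the sequence of cyp-25A2, cyp-25A3, cyp-25A4 and cyp-25A6 is repeated in the genome. Short reads are hard to place there, which limits how their lack of summits can be read. cyp-31A2 and cyp-29A2 had no summit. cyp-31A3, which with cyp-31A2 makes lipids needed for the eggshell, had 1 summit in replicate 2 of rank 11116. cyp-44A1, related to mitochondrial P450 enzymes, had summits in replicate 2 only, the highest of rank 5298.

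The ugt genes with a shared summit were ugt-12, ugt-18, ugt-21, ugt-37, ugt-38, ugt-39, ugt-44, ugt-46, ugt-52 and ugt-65, which are transferases whose substrates are mostly not known. ugt-12 had 2 such summits, both in coding exons, with pooled signals of 46.8 and 43.6, 515 and 1354 bp after its start. The one at 515 bp had rank 4791 in replicate 2 and rank 2440 in replicate 3. The one at 1354 bp had rank 2532 in replicate 2 and rank 10635 in replicate 3.

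ugt-44 had a shared summit in an intron 1266 bp after its start with a pooled signal of 43.3, of rank 2481 in replicate 2 and 12923 in replicate 3. A summit of pooled signal 41.3 lay 557 bp upstream of ugt-37 and inside ugt-38, so it was counted for both genes. ugt-65, a gene of 11954 bp with more than 1 transcript start, had shared summits at 2 places. The summit of pooled signal 39.5 was in an intron, 530 bp after the nearest of these starts. The summit of pooled signal 35.2 was again in the coding exon of col-130. The well studied ugt-22 and ugt-25 had no summit, ugt-16 had 1 in replicate 2 of rank 12246, and ugt-62 had summits in both replicates, of rank 4492 and 1681, that were not within 100 bp of each other.

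The gst genes with a shared summit were gst-27, gst-20 and gsto-1. gst-20 had its shared summit 22 bp after its start with a pooled signal of 40.6 and replicate ranks of 7831 and 3730. gsto-1, an omega class transferase, had a pooled summit of signal 46.2 and rank 1673 in an intron 190 bp after its start. Its counterparts had rank 7220 in replicate 2 and rank 7021 in replicate 3, and lay 5 bp apart. gsto-1 was the only one of 33 well studied enzyme genes with a summit shared by both replicates.

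gst-4 and gst-2 are neighbours that are read in opposite directions, and a single summit was counted for both. The same summit was also counted for dhs-12, one of the other detoxification genes described below. This summit had a pooled signal of 40.6 and rank 2976, and lay 434 bp upstream of the start of gst-4. It was inside gst-2, 218 bp after the nearest transcript start of that gene. The replicate summits, of rank 5755 at position 10141890 in replicate 2 and of rank 8355 at position 10141783 in replicate 3, were each within 100 bp of the pooled one but not of each other. gst-10, which conjugates the lipid peroxidation product 4-hydroxynonenal, gst-30 and gst-44 had no summit in any list. gst-5 and gsto-2 had summits in replicate 2 only, of rank 5580 and 9356. gst-1 and gst-7 had summits in both replicates and none in the pooled list.

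Among the 33 well studied genes, 10 had a pooled summit, 30.3% against 31.2% of all genes. In each replicate list 16 had a summit, 48.5%, against 38.8% of all genes in replicate 2 and 41.7% in replicate 3. The 1 with a shared summit is 3.03% of them, against 9.25%, and 10 had no summit in these lists, 30.3% against 42.3%. A single summit in 1 replicate list, as at cyp-14A5, cyp-37B1 and cyp-33E2 with ranks of 11443, 11313 and 12335 in replicate 3, lies in the part of the list that holds background regions as well as peaks.

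**Figure D3:**
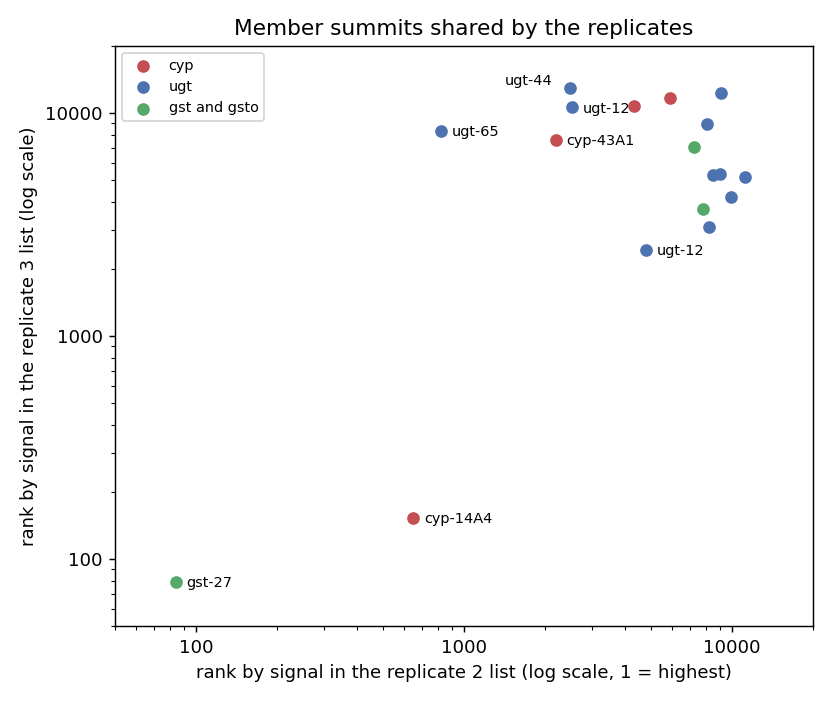
Rank by signal of the 18 summits at enzyme genes that are shared by both replicates within 100 bp, in the replicate 2 list (x axis) and the replicate 3 list (y axis), both on log scales with rank 1 the highest. gst-27, of rank 84 and 79, and cyp-14A4, of rank 646 and 153, stand apart at the lower left, and the other summits have ranks over 3000 in at least 1 list.

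The 17 genes with a shared summit held 18 such summits. The summits of gst-27 and then cyp-14A4 had the highest signals in both replicates, and below them the order by signal was not kept. Spearman's rho of the signals was 0.0361 over these 18 summits, given as a description, since both lists come from the same strain. Only summits present in both lists enter this value. The signals ran from 16.8 to 59.3 in replicate 2 and from 16.04 to 59.3 in replicate 3, with medians of 19.8 and 19.96. Of the 68 pooled summits at enzyme genes, 19 had counterparts within 100 bp in both replicates, 27.9% against 24.5% of the pooled summits at all genes. Another 18 had none in either, 26.5% against 12.6%.

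**Figure D4:**
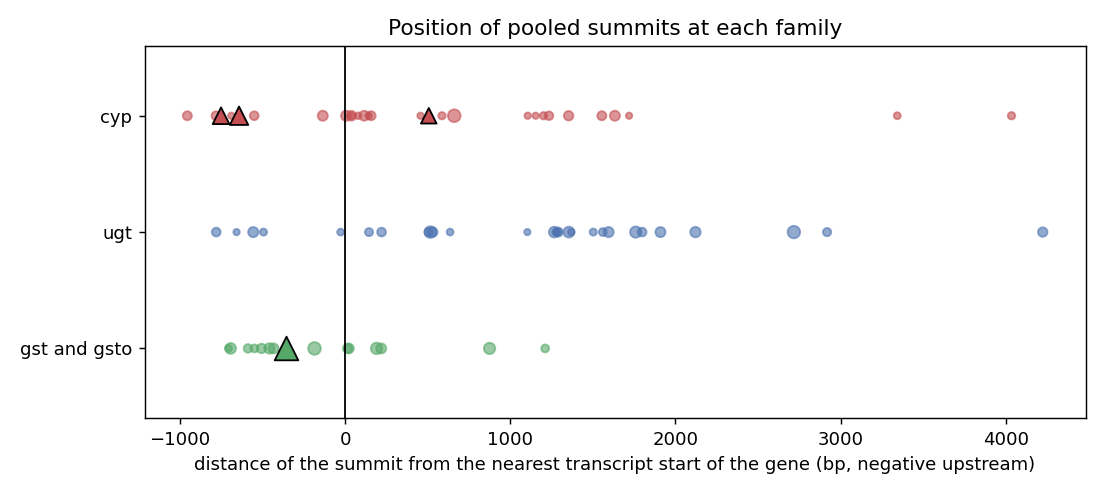
Distance of each pooled summit from the nearest transcript start of its gene (bp, negative upstream), by family, with the area of each symbol growing with signal and triangles for summits within 200 bp of a tRNA or snoRNA gene. Summits at gst genes lie mostly upstream, 9 of 15, and those at ugt and cyp genes mostly inside the gene. Upstream is judged by the counted gene alone, and some of these gst summits lie in a coding exon of a neighbouring gene.

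The place of pooled summits was counted by family, from the exons of the counted gene alone. At gst genes, 9 of 15 pairs of a gene and a summit, 60%, were upstream of the gene, against 24.3% for all genes. At cyp genes 8 of 29 were upstream (27.6%) and at ugt genes 5 of 28 (17.9%). The 15 gst pairs come from 11 genes, and gst-9 and gst-42 each gave 2 upstream pairs. Both of the gst-9 pairs lay in a coding exon of pgm-1 and both of the gst-42 pairs in a coding exon of D1053.2. The upstream summit of gst-38 lay in a coding exon of F35E8.9, that of gst-4 inside gst-2, and that of gst-27 beside a snoRNA gene. In the replicate lists the upstream shares were 41.7% and 52.4% for gst, 34.9% and 34.1% for cyp and 30.3% and 17.5% for ugt genes in replicates 2 and 3, so the gap between families was smaller in replicate 2. No test of these shares was made. In coding exons of the counted gene itself lay 13.3% of the gst, 37.9% of the cyp and 35.7% of the ugt pairs, against 31.4% for all genes. Summits in a coding exon of another gene, as at gst-9, gst-42 and gst-38, are not in these shares. The gst genes are short, with a median length of 1315 bp, against 2317 bp for cyp and 2519 bp for ugt genes, so a smaller part of the stretch searched lies inside the gene. The part that length plays in the placement was not tested.

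Within classes of gene length the pooled shares of enzyme genes were near those of all genes. In 1 class the replicate 2 interval left out the share of all genes. Below 1500 bp the share was 20% of 35 enzyme genes, against 22.6% of all genes. From 1500 bp to below 3000 bp it was 26.7% of 116 enzyme genes, against 27.3%. From 3000 bp to below 6000 bp it was 40% of 35 enzyme genes, against 38.6%. In the replicate 2 list, 18 of the 35 enzyme genes below 1500 bp had a summit, 51.4% (33.99 to 68.6%), against 27.8% of all genes of that length, and 33 of these 35 were gst genes. This is 1 of many intervals set beside such a share. The neighbours gst-7 and gst-8 were counted there from the same summit. The replicate 3 list gave 31.4% (16.9 to 49.3%) in that class, against 30.3%, and shared summits were at 5.71%, against 5.91%.

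A larger share of other detoxification genes than of these enzyme genes had pooled summits. The list held 101 genes, among them short-chain and aldehyde dehydrogenases, flavin monooxygenases, ABC transporters of the pgp, mrp and haf groups, and regulators such as skn-1 and nhr-8. A pooled summit was found at 54 of 188 enzyme genes (28.7%, 22.4 to 35.8%) and at 63 of these 101 genes (62.4%, 52.2 to 71.8%), beside 31.2% of all genes. For summits shared by both replicates the shares were 9.04% and 15.8%, and no optimal summit fell at any of the 101 genes.

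The other detoxification genes were longer, with a median of 3771 bp against 2272.5 bp for the enzyme genes and 2027 bp for all genes. On X lay 27.7% of them, against 7.45% of the enzyme genes, and 47.3% of all genes on X had a pooled summit. On the autosomes the other detoxification genes had one at 60.3% of genes, against 26.4% of enzyme genes and 28.7% of all genes. Within the length classes their pooled share was 63.6% of 11 genes below 1500 bp, 51.7% of 29 from 1500 to below 3000 bp, 60.5% of 38 from 3000 to below 6000 bp and 78.3% of 23 from 6000 bp, where all genes stood at 54.7%. Of the ABC transporters, which pump conjugates out of cells and had a median length of 6207.5 bp, 22 of 30 had a pooled summit. The short-chain dehydrogenases of the dhs group had one at 17 of 30 genes, the aldehyde dehydrogenases at 6 of 13 and the flavin monooxygenases at 1 of 5, all beside 31.2% of all genes. The gstk genes had one at 1 of 2. The other 21 genes were picked by name, regulators such as skn-1, daf-16 and hif-1 among them, and 16 of these had one. emb-8, the reductase that passes electrons to P450 enzymes, had pooled summits up to a signal of 39.5 and a summit shared by both replicates. No test was made of this difference.

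**Figure D5:**
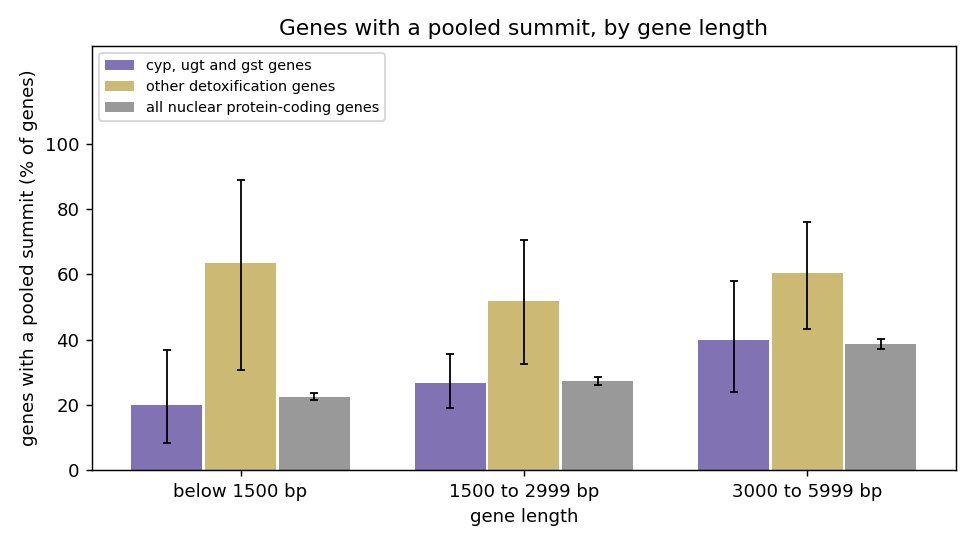
Percent of genes with a pooled summit in 3 classes of gene length, for cyp, ugt and gst genes together, for the 101 other detoxification genes and for all nuclear protein-coding genes; error bars are exact 95% intervals for counting error. The enzyme genes, at 20%, 26.7% and 40%, lie near all genes, and the other detoxification genes, at 63.6%, 51.7% and 60.5%, lie above both.

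Enzyme genes are unevenly spread over the genome. Chromosome V held 92 of the 188, 48.9% against 25.004% of all genes, and 26 of these had a pooled summit, 28.3% against 29.4% of all genes on V. On X 8 of 14 enzyme genes had one, 57.1% against 47.3% of all genes on X, and on the autosomes 46 of 174, 26.4% against 28.7%. Many enzyme genes stand in tandem arrays, and 80 were in 14 arrays of at least 3 genes of 1 family with gaps of at most 10000 bp. A pooled summit was found at 28.75% of genes in arrays and at 28.7% of the 108 outside them.

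In the array from ugt-40 to ugt-36 on V, 4 of 6 genes had a pooled summit and 3 a shared one. The shares of all genes were 31.2% and 9.25%, and in this array the same summit was counted for both ugt-37 and ugt-38. In the array from cyp-35A5 to cyp-34A10 on V, 2 of 10 had a pooled summit and none a shared one. In the array from gst-26 to gst-35 on II, 2 of 9 had a pooled summit, gst-27 and gst-32. Arrays can hold near-identical copies, in which short reads are hard to place. Words of 32 bases that occur more than once in the genome made up a median of 2.15% of the enzyme genes' sequence, against 1.05% for all genes, while the mean was 6.19% against 6.63%. Such words made up 20% or more of 11 enzyme genes, 5.85% against 8.90% of all genes. gst-10 and cyp-25A4, neither of which had a summit, stood at 68.4% and 56.0%. cyp-33C4 and ugt-21, which had 4 and 3 summits over the pooled and replicate lists, stood at 21.3% and 20.1%. They were the only ones of these 11 genes with a summit in those lists. The rest, cyp-25A6, cyp-25A3, gst-39, gst-34, cyp-25A2, gst-29 and cyp-35A4 included, had none, as did 39.4% of all enzyme genes. How reads were placed at these genes was not tested.

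The sequence under the summits was searched for short motifs, on both strands and within 50 bp of each pooled summit. The nuclear receptor core site AGGTCA was in 4 of 68 windows at enzyme genes, 5.88% (1.63 to 14.4%), against 2.79% of the windows of all 9583 nuclear pooled summits. These windows belonged to cyp-13B2, cyp-14A4, cyp-35B2 and ugt-60. The match at cyp-14A4 lies inside the tRNA-Tyr gene printed in capitals above. AGGTCA is also found in 47 of 612 nuclear tRNA genes, 7.68%, the tRNA-Lys gene beside cyp-43A1 included.

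The related letters AGTTCA were in 9 of 68 windows, 13.2% (6.23 to 23.6%), against 5.41% of all nuclear pooled windows, among them those of cyp-35A5, gst-8, gst-20 and cyp-13A7. GGGTCA was in 2 windows (2.94% against 1.59%), and the GATA factor site TGATAA in 5 (7.35% against 7.80%). GAGAGA was in 4 windows (5.88% against 7.33%). The SKN-1-like letters ATCATCA and the letters GCGCAGGG were in none of the 68, against 2.14% and 0.125% of all windows. None of these 7 motifs contains another. The windows at enzyme genes had a mean GC content of 38.1% ± 10.8 (SD, n = 68 windows), against 40.2% ± 11.4 (n = 9583 windows). These matches describe the windows and were not tested.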

How the data were processed

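The data were peak lists from ChIP-seq of 2 biological replicates. The lists of single and of pooled replicates hold peaks and background called with a control alignment, per the descriptions deposited with the files, and the optimal list was made from them by the irreproducible discovery rate. The aligner, peak caller, versions and thresholds are not given in the sources used here. Each peak carries a signal deposited by the authors on a scale that no source states. It also carries the authors' −log10 q-value. Depth is unknown, and the control was not analysed here.

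Lists on ce11, which is WBcel235, were joined to Ensembl release 115 gene models, with small RNA products from RefSeq, using Python 3.11.15, numpy 2.4.6, scipy 1.17.1 and pandas 2.3.3. The ce10 lists were not used. The join was tested on simulated data with planted summits. With 1 group there was no test between conditions.

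The genes and lists were chosen with earlier results of these data known. Named were genes with an optimal summit, the 6 highest pooled signals of each family, genes whose pooled summit has a counterpart within 100 bp in both replicates (up to 12 per family) and 33 well studied genes. Other genes named (members of subfamilies and arrays, those with motif matches, and other detoxification genes) were chosen after their values were seen. Alternatives changed distances, gene assignment, thresholds and replicates.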

Additional observations from a re-analysis of the deposited data

How the results depend on the processing

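Of 61 alternative settings over 6 shares of genes, 37 kept the share within its 95% interval and 24 took it outside, and the enzyme genes were below all genes in 33 of the 61. Leaving out summits near small RNA genes took the optimal share to 0% of enzyme genes, against 0.325% of all genes. For the pooled list, the share of all enzyme genes was 38.8% at 2000 bp, 19.7% with transcript starts only, 18.1% for the upper 50% by signal and 1.60% for the highest peaks, 2 times as many as the optimal list holds. For cyp genes it was 20.3% with starts only, 17.6% for the upper 50% and 2.70% for those highest peaks. For ugt genes it was 16.4% with starts only, 17.9% for the upper 50% and 0% for the highest peaks. For gst genes it was 40.4% at 2000 bp and 2.13% for the highest peaks. The share with a summit in both replicates was 18.1% by overlap of peak intervals and 1.60% for the upper 50%. All genes moved in the same direction in these settings, but not by as much everywhere. At 2000 bp the gst share passed that of all genes, 39.5%, and the upper 50% left 4.36% of all genes with a summit in both replicates, against 1.60% of enzyme genes. The cause was not tested.

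With 1 replicate list alone the shares ran from 40.4 to 43.6% for all enzyme genes (the optimal, pooled and shared results alike), from 39.2 to 44.6% for cyp, from 37.3 to 50.7% for ugt and from 31.9 to 46.8% for gst genes. No paired analysis was possible because all samples form 1 group and no result comes from a test. With 2 replicates, no read counts and the control not analysed here, the lists limit how far a single low peak can be read.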

Other observations

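A wider reach of 2000 bp in the optimal list added cyp-37A1, gst-26 and gst-28 to gst-27 and cyp-14A4, which made 2.66% of enzyme genes, against 1.22% of all genes. gst-26 and gst-28 were reached by the summit already counted for gst-27, so cyp-37A1 alone brought further summits, and these were also within 200 bp of a snoRNA gene. The summits near cyp-37A1, a P450 gene on II, were 1317 and 1516 bp upstream of its start, beside the snoRNA gene F01D5.12, with signals of 120.4 and 88.7. gst genes in the middle 50% of chromosome length had pooled summits at 7 of 16 genes, against 4 of 31 in the outer 50%. For cyp genes these shares were 29.7% and 32.4%, for ugt genes 31.1% and 27.3%, and for all nuclear protein-coding genes 30.9% and 31.7%. These values are descriptions without a test.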
